A study of Bos taurus with 56 samples.

Results

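The germinal vesicle (GV) oocyte and the day 14 elongating embryo of cattle (Bos taurus) stand at the 2 ends of a chromatin accessibility series, and 677 regions held a peak at both ends and in none of the 9 lists between them. They were found by joining peaks of all 11 lists that overlapped by at least 1 bp, which gave 482097 union regions, and keeping those with peaks of the GV and day 14 lists and of no other list. The 677 regions were 0.14% of all union regions and 15.8% of the 4278 regions with a GV peak. The regions were chosen by presence and absence of peaks in the 11 lists, so their presence at both ends is a description and was not tested.

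The assay was ATAC-seq: an enzyme cuts and tags loosely packed DNA, and stretches where tagged fragments accumulate are called as peaks of open chromatin. The 56 libraries came from pooled GV oocytes (6 libraries), MII oocytes (5), 2-cell (6), 4-cell (6), 8-cell (5) and 16-cell embryos (5), morulae (6), morulae derived in vivo (4), blastocysts (3), blastocysts derived in vivo (4) and day 14 elongating embryos (6). The sources used here give no breed, donor age or way of obtaining the oocytes and the other embryos, and no treatment or genetic change is named for any group. The authors merged the peaks of a stage into 1 list of positions, without read counts or scores, so depth is unknown, the spread between libraries could not be computed and no p-value is given. Oocyte purity and the identity of the day 14 tissue could not be checked against marker genes, since no gene annotation of the files' genome build, UMD3.1, was used.

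A GV oocyte is arrested in meiotic prophase with its nucleus, the germinal vesicle, intact. Towards the end of growth its chromatin condenses and transcription falls silent, and the stored maternal RNA carries the embryo until its own genome is activated, in cattle around the 8-cell to 16-cell stage. By day 14 the bovine conceptus is elongating and consists mostly of trophectoderm, the outer layer that secretes interferon tau and later forms the fetal part of the placenta. Open chromatin marks promoters, enhancers and other sites where proteins bind DNA, and a site can be open in unrelated cell types.

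Most GV regions that had a day 14 peak also held a peak of a stage in between. Such a peak may overlap the day 14 peak of the region and not its GV peak. Of the 2346 GV regions with a day 14 peak, 1606 (68.5%, 95% interval 66.5% to 70.3%) had a peak in at least 1 of the 8-cell, 16-cell and 2 morula lists. The 677 regions made up 28.9% (interval 27% to 30.7%), and the remaining 63 lacked the 8-cell to morula lists but had a peak in another list. Among the 808 GV regions found in exactly 2 lists, day 14 was the second list in 83.8%, whereas GV paired with the 8-cell list alone in 40 regions, with the morula list alone in 34 and with the MII list alone in 1. The day 14 list held 372509 peaks and covered 4.66% of the 2661 Mb spanned by the lists, against 2.47% for the morula and 0.0104% for the MII list. The lists thus differed widely in length, and its part in these counts was not tested. All intervals are exact Clopper-Pearson intervals, cover counting error only and treat neighbouring regions as independent.

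Among GV regions absent from the 9 other lists, 677 of 2375 had a day 14 peak, or 28.5% (interval 26.7% to 30.4%). The same share, taken for regions found in 1 other list and otherwise at most in day 14, was 25.1% (interval 22.8% to 27.6%) for 2-cell and 25% (interval 23.5% to 26.6%) for 4-cell embryos. It was 26.8% (interval 24.6% to 29%) for blastocysts and 25.6% for morulae. The GV interval overlapped those of the 2-cell and blastocyst lists and lay just above those of the 4-cell and morula lists. Lower shares were found for the 16-cell (19.3%), in vivo morula (19.2%), 8-cell (14.8%), MII (14.4%) and in vivo blastocyst lists (6.08%). A day 14 peak in about 25% of otherwise stage-restricted regions was thus seen for several early stages. The GV share was the highest of the 10 by a small margin, whose size against the spread between libraries is unknown. Within the classes of peak width given below, the GV share was not the highest in any class.

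**Figure D1:**
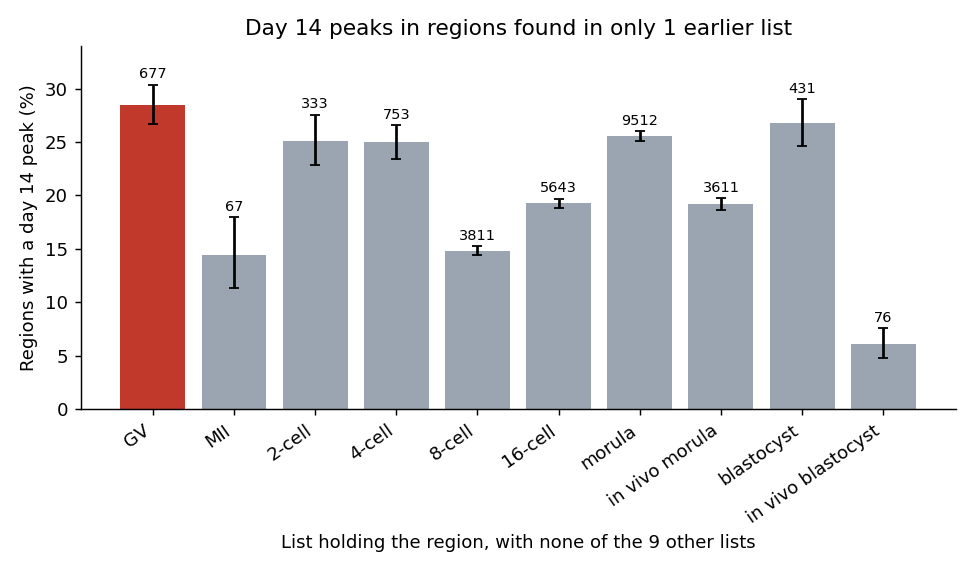
Share of regions with a day 14 peak (y axis, percent), for regions found in the list named on the x axis and in none of the 9 other lists. Error bars are 95% exact binomial intervals, numbers above the bars count the regions with a day 14 peak, and the GV bar (red, 28.5%) stands close to the blastocyst (26.8%), morula, 2-cell and 4-cell bars.

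The share was higher in classes of wider GV peaks. Wider peaks have more room to overlap a day 14 peak, and its part in this was not tested. Of the GV peaks narrower than 300 bp, 112 of 501 regions (22.4%, interval 18.8% to 26.3%) had a day 14 peak. From 300 to below 400 bp the share was 28.2%, from 400 to below 500 bp it was 30.6%, and from 500 bp upward it was 35.4% (121 of 342, interval 30.3% to 40.7%). In every list except MII the share was higher from 500 bp upward than below 300 bp. It was 23.8% below 300 bp and 32% from 500 bp upward in the 4-cell list. The 2-cell list gave 23.2% and 39.4% for these classes, and the morula list 20.4% and 34.7%. In the MII list, with few wide peaks, the share was 31.1% (14 of 45) from 400 to below 500 bp and 4.55% (1 of 22) above that. Within each of these 4 width classes except the narrowest the GV share was above the 4-cell share, and below 300 bp it was under it, with overlapping intervals in all 4. The blastocyst share was above the GV share in all 4 classes. It was 24.5% (356 of 1452) below 300 bp, 47.4% (46 of 97) from 300 to below 400 bp, 39.5% (15 of 38) from 400 to below 500 bp and 63.6% (14 of 22) above that. Most blastocyst regions thus fell in the narrowest class.

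Within the 677 regions the peaks of the 2 stages overlapped in part more often than in full. The overlap was at least 50% of the shorter peak in 492 regions (72.7%) and at least 50% of both peaks in 201 (29.7%), and at least 90% of the GV peak was covered in 132 (19.5%). GV peaks there had a median width of 373 bp (quartiles 316 and 452 bp, range 223 to 1043 bp), and day 14 peaks 278.5 bp (quartiles 172 and 512 bp, range 125 to 3249 bp). The median overlap was 174 bp (quartiles 110 and 289 bp), which was a median of 47.0% of the GV peak. In the 619 regions with 1 peak of each list, the day 14 centre lay a median of 153 bp from the GV centre, and at most 1021 bp from it. In 457 regions (67.5%, interval 63.8% to 71.0%) the peaks were staggered, so that neither list's peaks lay wholly inside the other's. In 124 regions (18.3%) the day 14 peaks lay wholly inside the GV peak, and in 96 (14.2%, interval 11.6% to 17.0%) the GV peak lay wholly inside a day 14 peak. The share of GV peaks inside was 21.4% when the GV peak could reach out by 50 bp on each side.

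Where the peaks of 1 list lie inside a peak of the other, the arrangement by itself sets which is wider. In staggered regions it does not. The widths within each arrangement are given as a description. Where the GV peak lay inside, the median day 14 width was 890.5 bp and the median GV width 356.5 bp. Where the day 14 peaks lay inside, these medians were 168 bp and 410.5 bp. Staggered regions had a median day 14 width of 322 bp and a median GV width of 372 bp. In 281 of the 677 regions (41.5%) the day 14 peaks together were wider than the GV peak. A GV peak touched more than 1 day 14 peak in some regions, and 57 regions joined 1 GV peak to 2 day 14 peaks, separated by a median gap of 108 bp (range 1 to 503 bp), and 1 region held 2 GV peaks.

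**Figure D2:**
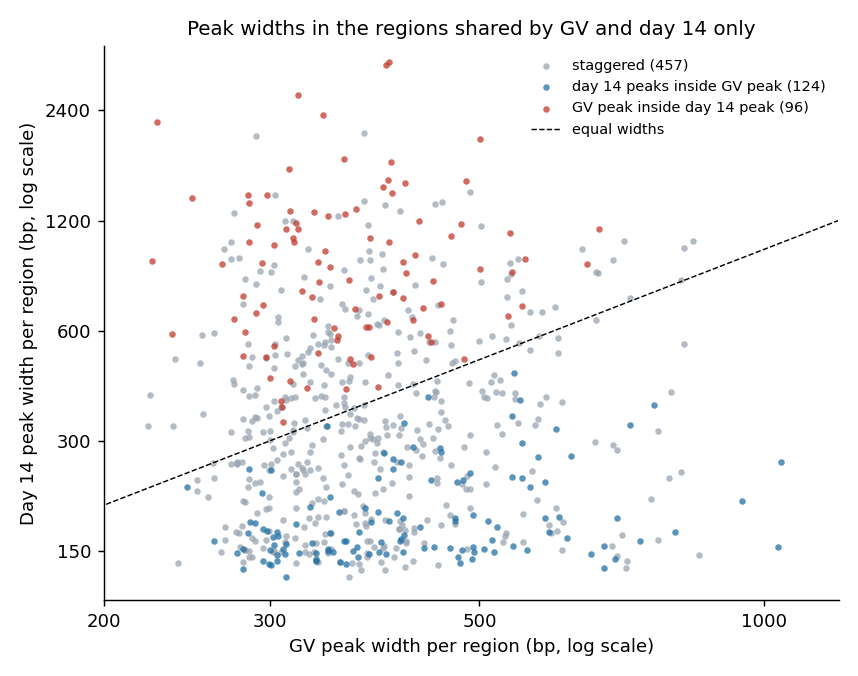
Width of the day 14 peak (y axis, bp, log scale) against the width of the GV peak (x axis, bp, log scale) in each of the 677 regions, with widths added where a region held 2 peaks of a list. Colours give the arrangement of the peaks, the dashed line marks equal widths, and GV widths span 223 to 1043 bp while day 14 widths span more than an order of magnitude.

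The regions with the largest common stretch were well separated along the genome. On chromosome 21 the GV peak from 69546241 to 69547058 and the day 14 peak from 69546209 to 69547035 (UMD3.1, counted from 1) had 795 bp in common, 97.2% of the GV peak. On chromosome 18 the GV peak from 61633227 to 61633919 shared 688 of its 693 bp with a day 14 peak of 937 bp, and the GV peak from 57999489 to 58000157 lay with all its 669 bp inside a day 14 peak of 1135 bp. In these 3 regions the oocyte peak was thus covered almost in full.

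The next 3 by shared bases lay on chromosome 29 from 44686614 to 44687778 (603 bp shared), on chromosome 2 from 133073046 to 133074342 (596 bp) and on chromosome 25 from 42542038 to 42542976 (559 bp, the whole GV peak). The other 4 of the 10 lay on chromosome 4 from 120531883 to 120532581 (555 bp), on chromosome 9 from 65576878 to 65577629 (547 bp), on chromosome 3 from 21024609 to 21025477 (541 bp) and on chromosome 23 from 11424476 to 11425583 (539 bp). In all 10 the day 14 peak was the wider one, with 698 to 1135 bp against 539 to 841 bp, and in 5 it enclosed the GV peak. Ranking by shared bases selects wide peaks of both lists, so these widths are partly set by the choice. Over all 677 regions the day 14 peaks were wider in 41.5% and enclosed the GV peak in 14.2%. Of these 10 regions, 5 lay within 5 Mb of the last position seen on their chromosome, a small count. This held for 124 of all 664 autosomal regions of the set (18.7%) and for 20.8% of autosomal regions in the GV list alone. The nearest peak of any other list was 318 bp away for the region on chromosome 3, in the morula list, and 34061 bp away for that on chromosome 25, also in the morula list.

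At the other edge of the rule some regions were members by a single base. The GV peak on chromosome 3 from 33324326 to 33324603 and the day 14 peak that starts at 33324603 had 1 bp in common, as had the pairs on chromosome 15 at 27875239 and at 83415978. Pairs on chromosome 5 (GV peak from 113949702 to 113950138) and chromosome 13 (GV peak from 58959064 to 58959382) had 2 bp in common. Just outside the rule, the GV peak on chromosome 4 from 65865713 to 65865996 abutted a day 14 peak with 0 bases between them. Those on chromosome 20 from 8370028, chromosome 23 from 18081662 and chromosome 29 from 45581489 lay 1 base from one, and that on chromosome 5 from 26120630 lay 2 bases away. Of the 677 regions, 76 (11.2%) shared fewer than 50 bp. Of the 1698 GV regions found in no other list, 116 (6.83%) lay less than 100 bp from a day 14 peak and 631 (37.2%) less than 1000 bp, so the boundary of the set ran through a continuum of distances. Requiring the overlap to be 50% of both peaks left 201 regions.

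To see whether day 14 peaks gathered at GV peaks or merely around them, day 14 occupancy was read at fixed distances from the centres of the 2376 GV peaks absent from the 9 other lists, whether or not they had a day 14 peak. At the centre 354 peaks (14.9%, interval 13.5% to 16.4%) lay under a day 14 peak. The mean occupancy was 10.1% at 1 to 2 kb, 9.48% at 2 to 5 kb and 8.93% at 5 to 10 kb, all above the 4.66% that the day 14 list covers overall. Occupancy at the GV centre was therefore 1.47 times that at 1 to 2 kb, and the surroundings were themselves rich in day 14 peaks. The ratio was 1.28 for 2-cell, 1.72 for 4-cell and 1.15 for 8-cell peaks chosen in the same way. For blastocyst peaks it was 4.26, with 25% at the centre and 5.86% at 1 to 2 kb, and for in vivo blastocyst peaks 1.57, with 3.52% and 2.25%. Because a broad day 14 peak that reaches a peak of another list brings that list into the region and removes it from the set, occupancy close to the centre may be understated by construction in all these lists.

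**Figure D3:**
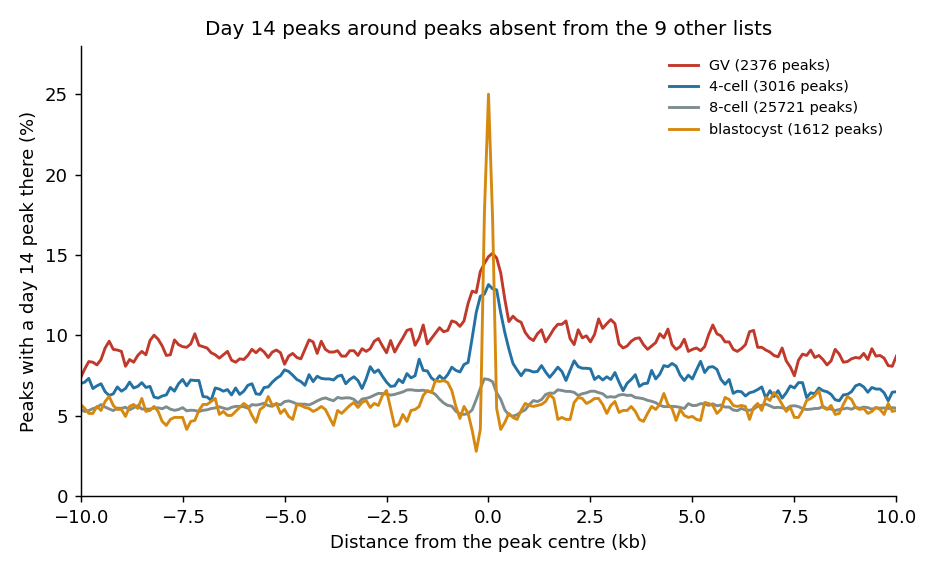
Share of peaks with a day 14 peak at a given distance (y axis, percent) against distance from the peak centre (x axis, kb), for GV, 4-cell, 8-cell and blastocyst peaks absent from the 9 other lists. The GV line (red) stands at 14.9% at the centre, above means of 8.93% to 10.1% farther out. The blastocyst line has a narrow summit of 25%, with a mean of 5.86% at 1 to 2 kb.

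The 677 regions lay where day 14 peaks were dense. In the 50 kb on each side, with the region itself left out, day 14 peaks covered a mean of 13.9% (quartiles 6.15% and 19.2%). Around GV-only regions, those with no peak in any other list, the mean was 6.58% (quartiles 1.78% and 9.11%). Around the 303808 regions of the day 14 list alone the mean was 12.5%, and around the 3811 regions shared by the 8-cell and day 14 lists only it was 11.1%. Because the rule gives all 677 regions a day 14 peak and GV-only regions none, these values are no independent comparison. When the 2375 GV regions absent from the 9 other lists were ordered by day 14 cover in their flanks and split into 4 groups of equal size, 9.26% (interval 7.05% to 11.9%) of the lowest group had a day 14 peak, then 16.5%, 34.1% and 54.2% (interval 50.1% to 58.3%) of the highest. Flank cover comes from the same day 14 list as membership, so this gradient describes the list and is no independent test.

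Another day 14 peak lay within 10 kb of 655 of the 677 regions (96.8%), at a median of 0.595 kb, against 84.7% and 1.79 kb for GV-only regions. This was 92.4% for the regions shared by 8-cell and day 14 only and 93.6% for those shared by 4-cell and day 14 only. The day 14 list itself separates the 677 regions from GV-only regions, so these values are no independent comparison. Another GV peak lay within 10 kb of 112 (16.5%, interval 13.8% to 19.6%), against 12.1% (interval 10.6% to 13.8%) of GV-only regions. Day 14 width and day 14 surroundings went together within the set. When the set was split into 4 by day 14 width, in the group with the narrowest peaks (127 to 182 bp) the flank cover averaged 9.61%, and in the group with the widest (575 to 3249 bp) 18.1%, while the median GV width was 372.5 bp and 382 bp in these groups.

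Although no list between the 2 ends had a peak in these regions, such peaks were often close by. A peak of the 8-cell, 16-cell or either morula list lay within 10 kb of 463 regions (68.4%, interval 64.7% to 71.9%), against 61.2% (interval 58.8% to 63.5%) of GV-only regions. For the regions shared by the 4-cell and day 14 lists only it was 72.1% (interval 68.8% to 75.3%), which overlaps the interval of the 677. It was 84.0% for those shared by the 8-cell and day 14 lists only, which were chosen for an 8-cell peak. Within 2 kb the share of the 677 was 28.7%, and within 50 kb it was 96.6%. Morula peaks were within 10 kb of 47.3% of the regions, 16-cell peaks of 45.1%, in vivo morula peaks of 32.3% and 8-cell peaks of 31.6%. The short lists were seldom near, with 4-cell peaks within 10 kb of 10.2%, 2-cell peaks of 5.61%, blastocyst peaks of 2.95%, in vivo blastocyst peaks of 2.51% and MII peaks of 1.33%. For each of the 9 lists this share was higher than around GV-only regions, with intervals that overlapped for the MII, 2-cell, 4-cell and 8-cell lists and were apart for the other 5 lists. The day 14 list separates the 677 regions from GV-only regions, so this contrast is no independent comparison. In the 50 kb flanks, mean 8-cell cover was 1.61% around the 677 and 1.63% around regions of the day 14 list alone. These 2 means were 2.11% and 2.03% for 16-cell, 3.16% and 3.19% for morula and 1.93% and 2.09% for in vivo morula peaks. The nearest peak of any of the 9 lists was a morula peak for 230 regions, a 16-cell peak for 168 and an 8-cell peak for 107. The most isolated region, on chromosome 19 from 51035367 to 51035838, lay 124399 bp from the nearest such peak, followed by those on chromosome 5 from 106865974 to 106866534 (93413 bp) and on chromosome 25 from 42645703 to 42646343 (68328 bp).

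**Figure D4:**
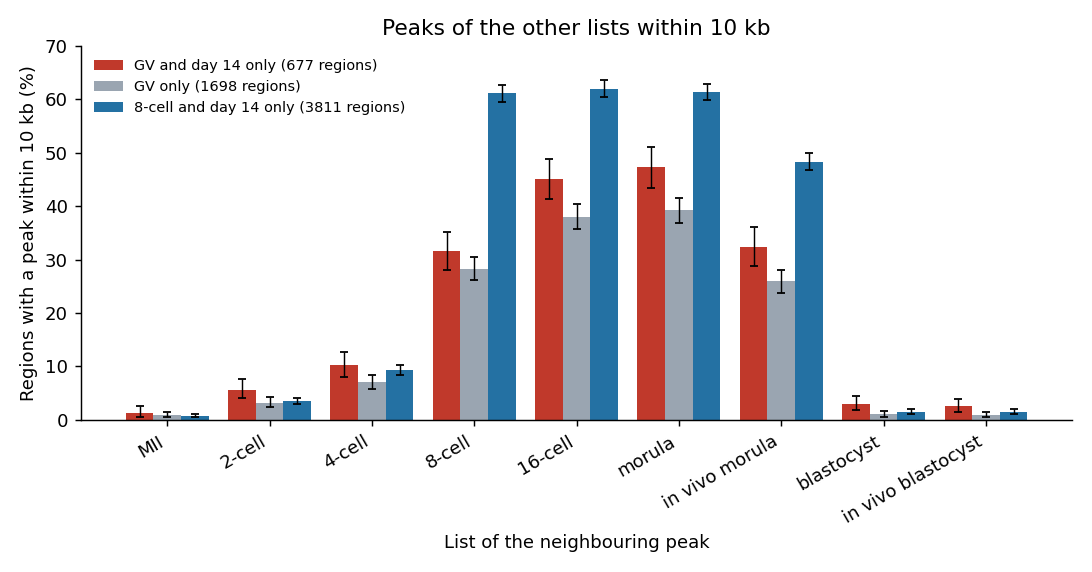
Share of regions with a peak of another list within 10 kb (y axis, percent) by list (x axis), for the regions shared by GV and day 14 only (red), GV-only regions (grey) and regions shared by 8-cell and day 14 only (blue). Error bars are 95% exact binomial intervals, and the red bars lie between the grey and blue ones for the 8-cell, 16-cell and both morula lists (31.6% to 47.3% in red). The regions in red and blue were chosen for a day 14 peak and those in grey for its absence. The regions in blue were also chosen for an 8-cell peak.

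The 677 regions were spread over all 29 autosomes and X. They were densest on chromosome 25 (31 regions, 2.84 times the mean density of the set), chromosome 19 (41 regions, 2.52 times), chromosome 18 (41 regions, 2.44 times), chromosome 13 (49 regions, 2.29 times) and chromosome 23 (28 regions, 2.10 times). They were sparsest on chromosome 1 (10 regions, 0.248 times), chromosome 6 (10 regions, 0.329 times) and X (13 regions, 0.343 times). The gene-dense chromosomes 18, 19 and 25, which make up 6.5% of the span, held 113 of the 677. Their density there was 2.88 times that elsewhere (interval 2.33 to 3.53), against 1.72 times (interval 1.46 to 2.00) for GV-only regions. The ratio was 2.73 for the regions shared by 8-cell and day 14 only, 1.40 for those shared by 4-cell and day 14 only and 2.22 for all day 14 regions. It was 2.08 for GV regions with a peak in the 8-cell to morula lists, 2.04 for all GV regions and 2.32 for regions of the day 14 list alone. The day 14 list separates the 677 regions from GV-only regions and is itself dense there, so their contrast is no independent comparison.

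Chromosome by chromosome, the share of otherwise GV-restricted regions that had a day 14 peak ranged from 11.9% to 43.5%. It was highest on chromosome 11 (43.5%, interval 31% to 56.7%), chromosome 22 (42.9%, 6 regions with and 8 without a day 14 peak, interval 17.7% to 71.1%), chromosome 25 (42.5%) and chromosome 19 (40.6%). It was lowest on X, with 11.9% (interval 6.51% to 19.5%), chromosome 12, with 13.8%, and chromosome 9, with 14.3%. Across the 30 chromosomes this share and day 14 density had a Pearson correlation of 0.79, given as a description, since both are read from the day 14 list. Chromosome 13 combined the largest number of the 677 regions with 144 GV-only regions. Its share was 25.4% (interval 19.4% to 32.1%), and the 28.5% found over all chromosomes lay inside that interval. X held 269 GV regions, of which 4.83% belonged to the 677, and its day 14 density was 0.175 times the mean.

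**Figure D5:**
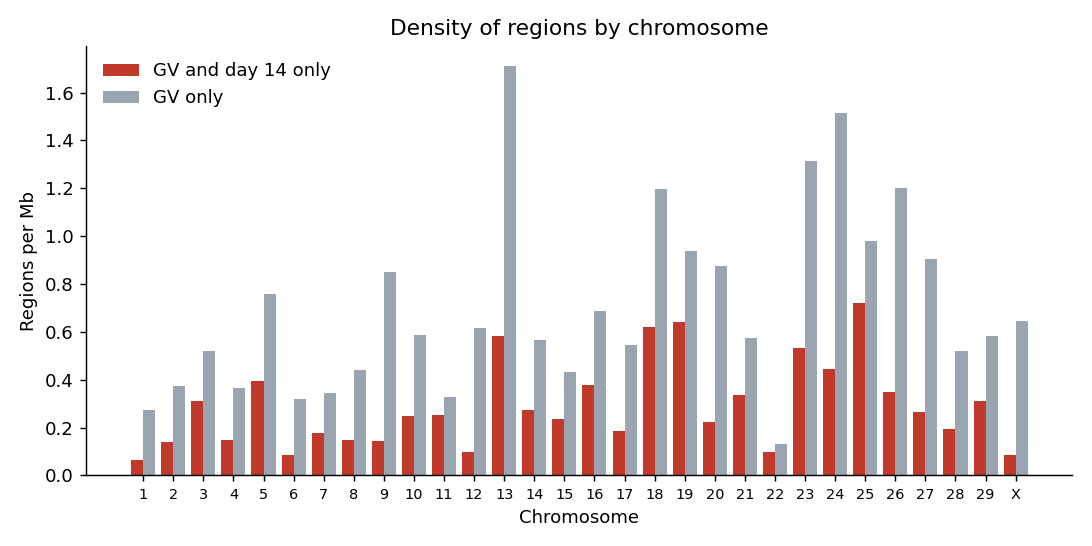
Regions per Mb (y axis) by chromosome (x axis) for regions shared by GV and day 14 only (red) and GV-only regions (grey). The red bars are highest on chromosomes 25, 19, 18 and 13, and low on chromosomes 1, 6 and X, while grey bars are high on chromosomes 13 and 24.

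Both sets with a GV peak were concentrated towards the distal ends of the autosomes. Of the 664 autosomal regions, 124 (18.7%, interval 15.8% to 21.9%) lay in the last 5 Mb of a chromosome, stretches that make up 5.77% of the autosomal span, and 32 (4.82%) in the first 5 Mb. The last 5 Mb held 20.8% (interval 18.8% to 22.9%) of GV-only regions, 11.8% of the regions of the day 14 list alone and 8.08% of those shared by 8-cell and day 14 only. Chromosome 25 had 12 of its 31 regions there, chromosome 5 had 11 of 48 and chromosome 24 had 9 of 28. The distal regions had a median GV width of 378.5 bp and shared a median of 185.5 bp, against 372.5 bp and 171.5 bp for the other autosomal regions. A peak of the 8-cell to morula lists lay within 10 kb of 59.7% of the distal regions and of 71.1% of the others.

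Some of the regions lay close to each other. Of the 2678 windows of 1 Mb, 478 held at least 1 of the regions while 333 of these held exactly 1, 103 held 2 and 32 held 3. The fullest windows were chromosome 5 between 111 and 112 Mb and chromosome 18 between 57 and 58 Mb, with 5 regions each. A further 8 windows held 4, of which the first by position was chromosome 4 between 120 and 121 Mb. The window on chromosome 18 held 23 GV regions in all and 360 day 14 regions, and that on chromosome 5 held 11 and 470. Another region of the set lay within 100 kb of 171 of the 677, within 10 kb of 34, and the closest pair was 34 bp apart. Another GV peak of any kind lay within 100 kb of 423 of the 677. Whether the regions lay closer to each other than GV regions in general was not tested.

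Regions that joined several peaks showed how the outlines differed between the stages. On chromosome 2 from 120312874 to 120313639, a GV peak of 354 bp bridged 2 day 14 peaks of together 502 bp and shared 90 bp with them. The GV peak of 394 bp on chromosome 3 from 19106206 to 19106599 shared 108 bp with 2 day 14 peaks, and that from 113292797 to 113293341, 545 bp wide, shared 344 bp. These 3 were the first by position among 58 regions with 3 peaks.

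Day 14 peaks in the 677 regions were similar in width to those in other regions where the day 14 list met 1 early list. Their median width was 278.5 bp, against 197 bp in the regions of the day 14 list alone. It was 271 bp where day 14 met the 4-cell list only, 260 bp with the 8-cell list only, 261 bp with the 2-cell list only and 333 bp with the morula list only. With the other lists it was 257.5 bp (MII), 269 bp (16-cell), 341 bp (in vivo morula), 232 bp (blastocyst) and 245 bp (in vivo blastocyst). Where a GV region had a peak in the 8-cell to morula lists, its day 14 peaks had a median width of 709 bp. For GV peaks the median was 373 bp in the 677 regions, 352 bp in GV-only regions and 390 bp in GV regions with a peak in the 8-cell to morula lists. Wider peaks have more room to touch a peak of another list, and the part of this in these widths was not tested.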

How the data were processed

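The authors combined the peaks called in the libraries of each stage, per the series description. The deposited lists hold chromosome, start and end, and no other measure. The tools named are Bowtie2 2.3, MACS2, bedtools and HOMER, and the build is UMD3.1, per the submitters' processing notes. Thresholds, the merging rule and any shift for the transposase, all not given in the sources used here, set how many peaks a list holds and how wide they are. The lists were read as BED, with starts counted from 0, and positions are printed counting from 1.

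Peaks of all 11 lists sharing 1 bp or more were joined into regions with Python 3.11.15, pandas 2.3.3 and numpy 2.4.6. The joining was tested on simulated lists, and bedtools 2.31.1 gave the same 482097 regions and 677 members. Chromosome lengths are the last position in any list. Distances run from the edges of the region to the next peak outside it. Intervals are 95% exact binomial (scipy 1.17.1), and figures used matplotlib 3.10.9. With 1 list per stage no replicate test was possible, and no random placements were made.

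Named regions follow a rule: the 10 regions with most and 5 with fewest shared bases, the 5 just outside, the 3 with most peaks, the 3 farthest from other lists and the 3 fullest 1 Mb windows. The regions, lists and comparisons were chosen with earlier results of these data known. The gene table at hand is of another assembly, so genes, sequence and motifs were not analysed here.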

Additional observations from a re-analysis of the deposited data

How the results depend on the processing

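The number of 677 regions and their share of 15.8% of GV regions depended on what counted as shared. With an overlap of 50% of the shorter peak the share was 11.5%, and with 50% of both peaks 4.70% (201 regions). Joining peaks closer than 500 bp, or widening each by 250 bp, gave 20.7%. With only peaks of at least 329 bp, the median of all lists, 251 regions met the rule, 8.76% of GV regions, with a median GV width of 410 bp against 406 bp for GV-only regions. Leaving out 1 of the 9 other lists gave 678 to 781 regions, the highest without the morula list (18.2%). A peak of the 8-cell to morula lists was near 28.7% of regions at 2 kb and 96.6% at 50 kb, and the GV peak was inside in 21.4% with 50 bp of slack. The density ratio for chromosomes 18, 19 and 25 was 3.03 with 50% of both peaks shared, 2.77 without X and 3.01 without the fullest window of each chromosome, and was not computed under the other settings. Reading starts as counted from 1, an alternative chosen after seeing the data, gave 678 regions. No paired analysis was possible because 1 merged list per stage was deposited, and for the same reason no replicate could be left out. Depth is unknown for every list, so absence from a short list such as MII is not shown to be absence of open chromatin.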

Other observations

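Regions with a peak in GV, day 14 and exactly 1 more list extend the set by 1 step. The third list was the morula list in 104 regions, the 8-cell list in 36, the 16-cell list in 29, the 4-cell list in 23 and the in vivo morula list in 19. It was the blastocyst list in 16, the 2-cell list in 7, the in vivo blastocyst list in 2 and the MII list in 1. The morula list, the longest of the 9, held 88858 peaks, and the MII list, the shortest, held 730. The in vivo morula list held 57039 peaks and the 8-cell list 59186, and they were the added list in 19 and 36 regions. For GV paired with 1 list and without day 14 the counts were 34 with the morula, 40 with the 8-cell, 26 with the 16-cell and 20 with the in vivo morula list, and 1 with the blastocyst list. The blastocyst list thus met GV without day 14 in 1 region and with day 14 in 16, values that are small and were not tested.

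The 13 regions on X had a mean day 14 flank cover of 4.06%, against 13.5% for autosomal regions outside the last 5 Mb and 16.4% within them. Day 14 density over the whole of X was 0.175 times the mean, so sparse day 14 peaks were not particular to the surroundings of these 13. Day 14 cover of X as a whole is not given here. A peak of the 8-cell to morula lists lay within 10 kb of 5 of the 13, and in 4 the GV peak lay inside the day 14 peak.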
